A study of Mus musculus with 11 samples.

Results

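Wild-type and Fgfr1 FCSPG homozygous mouse tailbuds were compared here across all genes of a deposited count table. The comparison takes the 4 libraries whose columns carry the FCSPG name and the 4 that carry the wild-type name, 8 of the 11 libraries in the series. The remaining 3 libraries, from Fgfr1 FCPG homozygotes, entered the fit only to estimate the spread. Tailbud tissue was microdissected from embryos at E8.5 (embryonic day 8.5), and RNA was sequenced with a stranded mRNA library kit, per the labels. The mutant group was Fgfr1 FCSPG/FCSPG, in which point mutations replace residues of FGF receptor 1 that bind signalling effectors, and the control group was wild type at Fgfr1. The labels give no strain and no sex, and they do not say whether a library came from 1 embryo or from a pool, so the spread between libraries may be partly technical. The labels describe the tissue as tailbud and mesoderm holding neuromesodermal progenitors (NMPs), somitic mesoderm and intermediate mesoderm. Genes of ribosomes, the respiratory chain, Notch signalling and the Hox clusters are left to one side in what follows.

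FGF receptors are receptor tyrosine kinases. Once a ligand binds, they recruit adaptors through phosphorylated residues and pass the signal to the ERK, phosphoinositide 3-kinase and phospholipase C pathways. In the tailbud, FGF8 and FGF4 made in the caudal progenitor zone act through FGFR1 to keep presomitic mesoderm unsegmented, and FGF signalling is needed for cells to leave the primitive streak as mesenchyme. ERK activity induces its own inhibitors, among them the Sprouty proteins and the phosphatase Dusp6, whose transcripts are used as readouts of the pathway.

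The 8 libraries held 17604060 to 25453070 counts, and 16572 of 56748 genes passed the filter on low counts. Libraries are named by the number in their column, and values in a series are always given in the order 24, 25, 26 and 33 for wild type and 13, 27, 30 and 32 for FCSPG. Levels are CPM, counts scaled to each library's size with TMM factors. Library FCSPG 32 had an Xist level of 0.151 CPM and counts of 4 Y-linked genes (Ddx3y at 51.8 CPM), whereas the other 7 libraries had Xist levels of 246 to 530 CPM and no count of those 4, so the mutant group holds 1 male library and the part of sex in the results was not tested. All 6 markers of tailbud and NMPs and all 4 of presomitic mesoderm were counted in every library, and their summed level was 447 to 816 CPM in wild type and 594 to 1110 CPM in FCSPG for the first list and 252 to 285 and 110 to 225 CPM for the second. Markers of tissue outside the dissected region also varied: the sum of 7 visceral endoderm and yolk sac markers was 15.4 to 643 CPM in wild type and 434 to 2260 CPM in FCSPG, and that of 3 primitive blood markers was 86.5 to 1920 and 6.58 to 172 CPM. The sum of 3 trophoblast markers did not pass 2.14 CPM in any library. In bulk tissue such as this, fewer cells of a type and less RNA per cell cannot be told apart.

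Fgfr1 itself (chr8:26003670-26065734, mm39), mutated in FCSPG embryos, had 185, 169, 206 and 209 CPM in wild type and 181, 171, 162 and 248 CPM in FCSPG. The groups overlapped, and the log2 fold change of FCSPG over wild type was -0.01 ± 0.15 (SE throughout), with adjusted p = 0.978. Point mutations need not alter a transcript's count, so the level does not check the labels.

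Across all genes, edgeR's quasi-likelihood test called 0 of 16572 genes at an adjusted p under 0.05 (0% called), and the smallest adjusted p was 0.446. The log2 fold change was above 0 in 49.9% of genes. At an unadjusted p under 0.05 edgeR counted 1823 genes (11%), of which 1034 were higher in FCSPG (6.24% of the genes tested) and 789 lower (4.76%). In 1218 genes (7.35%) the 4 FCSPG values did not overlap the 4 wild-type values, 663 higher (4%) and 555 lower (3.35%). DESeq2 on the 8 libraries called 478 of 15950 genes (3%), 331 higher (2.08%) and 147 lower (0.922%), and 45 genes when the FCPG libraries were included. The authors' deposited table, also made with DESeq2, lists 482 genes past the same threshold, of which 331 were higher and 151 lower in the mutant. Limma-voom called 0 genes, with 1846 at an unadjusted p under 0.05. The edgeR count at an unadjusted p under 0.05 was 1081 without WT 24, 706 without WT 26 and 725 without FCSPG 13. The number of genes whose groups did not overlap was 2349 without WT 25, 2931 without WT 33, 3228 without FCSPG 30 and 1935 without FCSPG 32, where 4 libraries are set against 3. Adjusted p-values given below without another name are edgeR's over all genes tested. An unadjusted p under 0.05 is used only to count genes, and no gene named passes the adjusted threshold by edgeR with all libraries in the fit.

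Leading genes were taken among protein-coding and lncRNA genes with a mean of at least 5 CPM. Left out were the groups of genes named above, Xist, Tsix and Y-linked genes, while other X-linked genes stayed in. The one of smallest p in the lower direction was Arl4d (chr11:101556367-101558658), a small GTPase of the ARF family. It had 37.6, 43.3, 45.7 and 23.2 CPM in wild type and 22.6, 19.5, 16.6 and 13.2 CPM in FCSPG. All 4 FCSPG libraries lay below all wild-type libraries, although FCSPG 13 was close to WT 33 (log2 fold change -1.06 ± 0.23, adjusted p = 0.446). Pdgfra, the PDGF receptor alpha of paraxial and other mesenchyme, had 159, 146, 185 and 173 CPM in wild type and 121, 112, 119.9 and 137 CPM in FCSPG. The groups did not overlap, and within each of them the values were close (log2 fold change -0.44 ± 0.10, adjusted p = 0.446). Sema6d, a transmembrane semaphorin, had 18.6, 17.1, 22.6 and 12.2 CPM in wild type and 6.94, 7.47, 11.7 and 6.65 CPM in FCSPG and was also lower in 4 of 4 libraries (log2 fold change -1.11 ± 0.26, adjusted p = 0.446).

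Eogt, which adds N-acetylglucosamine to EGF repeats of secreted and membrane proteins, had 38.3, 25.8, 61.1 and 23.5 CPM in wild type and 18.2, 13.7, 13.7 and 13.5 CPM in FCSPG. Its FCSPG values were nearly equal in 3 libraries, and the wild-type values spanned a wide range (log2 fold change -1.33 ± 0.32, adjusted p = 0.446). Ets2, an ETS-family transcription factor, had 137, 129.6, 160.5 and 74.6 CPM in wild type and 59.2, 73.2, 80.1 and 56.2 CPM in FCSPG. Here WT 33 lay inside the FCSPG range, so that 3 of 4 FCSPG libraries were below all wild-type libraries (log2 fold change -0.90 ± 0.22, adjusted p = 0.446). Dlc1, a GTPase-activating protein, had 71.6, 61.4, 94.2 and 62.7 CPM in wild type and 40.2, 44.9, 53.9 and 34.9 CPM in FCSPG, without overlap (log2 fold change -0.74 ± 0.18, adjusted p = 0.446).

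Btg2, an antiproliferative gene, had 32, 25.1, 70 and 14.8 CPM in wild type and 7.29, 11.6, 16.2 and 10.4 CPM in FCSPG (log2 fold change -1.64 ± 0.42, adjusted p = 0.446). Macf1, a very long protein that links microtubules to actin, averaged 200.4 ± 23.5 CPM in wild type and 143 ± 15 CPM in FCSPG (SD, n = 4 each). Polr2a, the largest subunit of RNA polymerase II, averaged 269 ± 30.3 CPM in wild type and 184 ± 35.6 CPM in FCSPG (SD, n = 4 each), with log2 fold changes of -0.49 ± 0.13 for Macf1 and -0.55 ± 0.14 for Polr2a. Of the 15 leading lower genes, which hold, among others, Ahsa2, Cep295, Usp47, Pcdhgc3 and Ubn2, 13 had groups that did not overlap, against 3.35% of all genes. They were chosen for a small p, so this count only describes them.

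By the same rule, the gene of smallest p in the higher direction was Porcn (chrX:8060087-8072764), the acyltransferase that Wnt proteins need for secretion. It had 5.55, 6.52, 5.02 and 7.35 CPM in wild type and 14, 11.1, 11.4 and 18.9 CPM in FCSPG. The lowest FCSPG library was above the highest wild-type library (log2 fold change 1.18 ± 0.23, adjusted p = 0.446). Alkbh7, a mitochondrial member of the AlkB family, had 6.18, 7.23, 6.54 and 6.62 CPM in wild type and 17, 11.1, 8.33 and 13.9 CPM in FCSPG, with little spread in wild type and a wide one in FCSPG (log2 fold change 0.92 ± 0.23, adjusted p = 0.446). Hspb1, a small heat shock protein, had 3.81, 3.14, 4.79 and 4.4 CPM in wild type and 20, 8.9, 6.94 and 15 CPM in FCSPG, and FCSPG 13 and 32 were the highest (log2 fold change 1.65 ± 0.45, adjusted p = 0.446).

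S100a1, a calcium-binding protein, had 3.81, 3.66, 1.83 and 8.54 CPM in wild type and 33.4, 15.3, 6.25 and 27.8 CPM in FCSPG. FCSPG 30 lay below WT 33, and FCSPG 13 and 32 were again the highest (log2 fold change 2.22 ± 0.61, adjusted p = 0.446). The serine protease gene Prss12 had 0.846, 1.08, 1.13 and 2.95 CPM in wild type and 14.9, 6, 1.98 and 15.2 CPM in FCSPG (log2 fold change 2.67 ± 0.79, adjusted p = 0.446). Llgl2, which belongs to the basolateral polarity proteins of epithelia, averaged 48.8 ± 12.1 CPM in wild type and 87.6 ± 17.1 CPM in FCSPG (SD, n = 4 each) (log2 fold change 0.85 ± 0.23, adjusted p = 0.446). Bri3 and Wdr86 had log2 fold changes of 0.72 ± 0.18 and 0.66 ± 0.17 and did not overlap. Of the 15 leading higher genes, chosen in the same way, 9 had groups that did not overlap, against 4% of all genes.

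**Figure D1:**
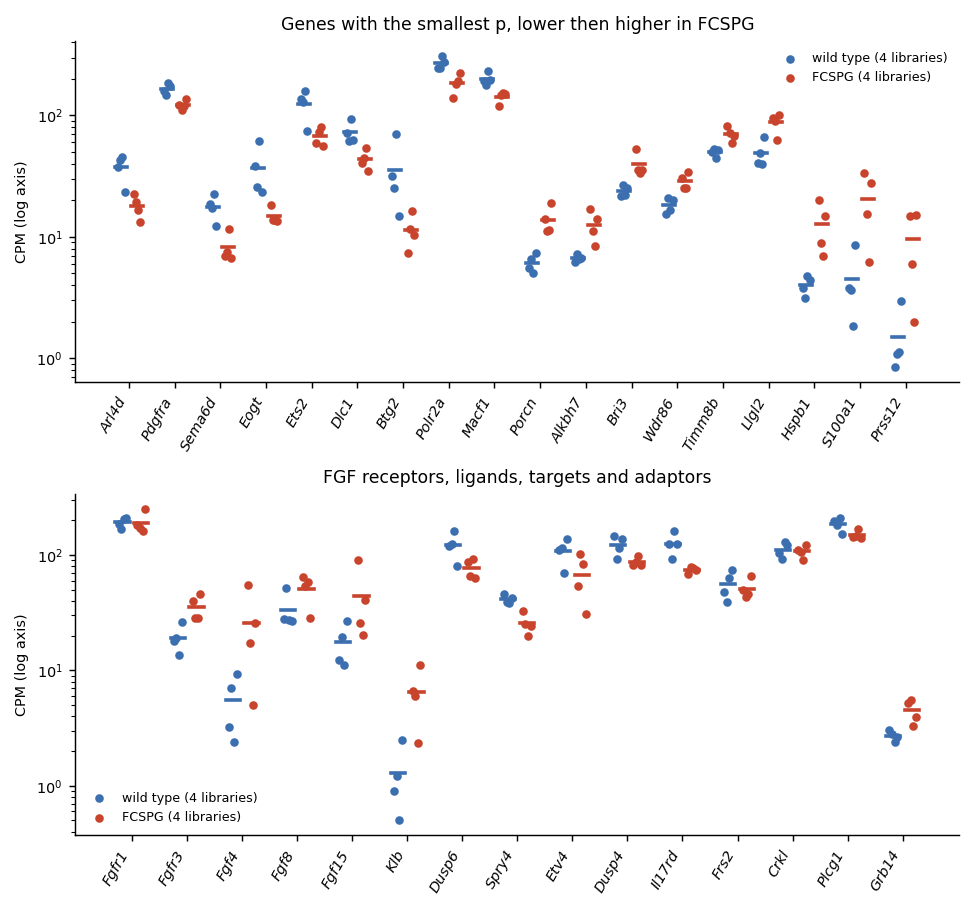
Level of the leading genes (top) and of FGF receptors, ligands, targets and adaptors (bottom) in each library, in CPM on a log axis, with wild type in blue, FCSPG in red and the group mean as a bar. Arl4d, Pdgfra and Porcn separate the genotypes without overlap, and Fgfr1 does not.

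The first gene by p in the authors' deposited table was Adamtsl2, a secreted protein related to the ADAMTS proteases that binds matrix microfibrils, with a log2 fold change of -2.14 in FCSPG and an adjusted p of 3.71e-06 there. It had 25.1, 15.9, 26.5 and 8.12 CPM in wild type and 4.9, 4.47, 4.91 and 2.97 CPM in FCSPG. The 4 FCSPG values were close together and below all wild-type values, of which WT 33 was the lowest, and edgeR gave a log2 fold change of -2.13 ± 0.68 with adjusted p = 0.446. The gene was named after its values were seen.

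The direction of a gene's difference ran with its length. Among 11071 genes with a mean of at least 5 CPM, divided into 10 groups of equal number by length, the median log2 fold change went from 0.22 in the shortest group (66 to 1695 bases) to -0.20 in the longest (10237 to 123179 bases). The share of genes higher in FCSPG was 78.9% in the shortest group and 19.6% in the longest. An unadjusted p under 0.05 in the lower direction was found for 3.15% of the shortest genes and 17.6% of the longest. By library, relative to the wild-type mean, the median log2 level of the shortest group was 0.44, 0.25, 0.11 and 0.07 in FCSPG and 0.04, 0.13, -0.16 and 0.01 in wild type. Thus FCSPG 13 and 27 lay outside the wild-type range, FCSPG 30 and 32 lay inside it, and WT 25 and WT 26 departed in opposite directions. The median length was 7819 bases for the 619 genes lower in FCSPG at p under 0.05 and 2434 bases for the 706 higher, against 4572 bases over all 11071. It was 10024 bases for the 15 leading lower genes and 1564 bases for the 15 leading higher genes. An edgeR fit with the trend on length removed in each library, added after the data were seen, called 0 genes and had 1471 at p under 0.05, and its medians are given below as length-adjusted. In that fit the log2 fold change was -1.27 for Arl4d, -0.29 for Pdgfra, -0.18 for Macf1 and 1.12 for Porcn. Without the adjustment these were -1.06, -0.44, -0.49 and 1.18. What set the trend was not tested.

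**Figure D2:**
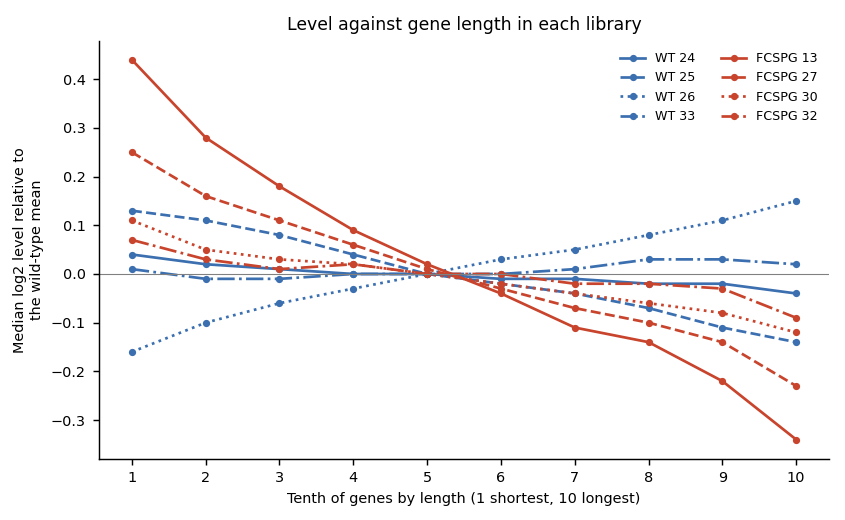
Median log2 level of genes in 10 groups of equal number by length, relative to the wild-type mean, for each wild-type (blue) and FCSPG (red) library. FCSPG 13 goes from 0.44 in the shortest genes to -0.34 in the longest, and WT 26 goes the other way, from -0.16 to 0.15.

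Targets of FGF-ERK signalling were lower for some members and level or higher for others. Of 20 list members, all tested, 11 were lower and 9 higher. At p under 0.05, 4 were lower and 0 higher (4.76% and 6.24% of all genes). The median log2 fold change of the list was -0.02, against 0.00 over all genes. Spry4, a feedback inhibitor of receptor tyrosine kinases (chr18:38719300-38734468), had 45.9, 39, 38.4 and 42.5 CPM in wild type and 32.6, 25, 20 and 24.4 CPM in FCSPG. Every FCSPG library was below every wild-type library (log2 fold change -0.70 ± 0.20, adjusted p = 0.446), and DESeq2 on 2 groups gave an adjusted p of 0.00543. Il17rd, also called Sef, a membrane inhibitor of FGF signalling, had 124, 91.9, 161 and 125 CPM in wild type and 68.4, 78, 77.4 and 74 CPM in FCSPG, again without overlap (log2 fold change -0.75 ± 0.25, adjusted p = 0.446; DESeq2 adjusted p 0.00365). Dusp6, the ERK phosphatase, had 119, 125, 161 and 80 CPM in wild type and 86.9, 65.9, 92.9 and 63.1 CPM in FCSPG, and WT 33 fell inside the FCSPG range (log2 fold change -0.65 ± 0.21, adjusted p = 0.446).

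The phosphatase Dusp4 averaged 122 ± 24 CPM in wild type and 87.2 ± 7.94 CPM in FCSPG (SD, n = 4 each) (log2 fold change -0.49 ± 0.15, adjusted p = 0.446). Etv4, an ETS factor induced by FGF, had 111, 114, 69.3 and 137 CPM in wild type and 53.7, 102, 83 and 30.6 CPM in FCSPG, with FCSPG 13 and 32 lowest and FCSPG 27 and 30 within the wild-type range (adjusted p = 0.54). Its relative Etv5 showed little difference, with 131, 111, 124 and 142 CPM in wild type and 135, 114, 94.1 and 142 CPM in FCSPG (log2 fold change -0.06 ± 0.17). Spry2 likewise gave 0.04 ± 0.20. The same 4 of 20 count of lower members was found in each of the 8 fits that left out a library, and in the length-adjusted fit.

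Ligands of the FGF family had means both above and below wild type, and the levels are given as deposited FPKM (per length), which allows comparison between genes. Over the groups Fgf8 averaged 24.7 ± 8.94 in wild type and 37.5 ± 11.5 in FCSPG, Fgf17 21.3 ± 10.2 and 5.65 ± 3.37, Fgf18 16.6 ± 7.71 and 6.06 ± 4.59, and Fgf4 1.71 ± 1.02 and 7.97 ± 6.57 (FPKM, SD, n = 4 each). On this scale Fgf8, Fgf17 and Fgf18 were the most abundant of these 4 in wild type, and Fgf8 stood above the other 3 in FCSPG. In CPM, Fgf4 had 3.22, 6.99, 2.37 and 9.36 CPM in wild type and 54.6, 17.3, 5.02 and 25.6 CPM in FCSPG. FCSPG 30 lay within the wild-type range and the other 3 mutant libraries above it (log2 fold change 2.23 ± 0.86, adjusted p = 0.446).

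Fgf17, a ligand of the presomitic mesoderm and tailbud, had 43.2, 39.5, 51.1 and 11.3 CPM in wild type and 8.43, 9.09, 17.4 and 3.58 CPM in FCSPG. Only WT 33 among the wild-type libraries fell into the FCSPG range (log2 fold change -1.92 ± 0.82, adjusted p = 0.446). Fgf15, a ligand that acts with the co-receptor Klb in adult gut and liver, had 12.3, 19.4, 11.1 and 27 CPM in wild type and 90.7, 25.9, 20.2 and 41 CPM in FCSPG (log2 fold change 1.35 ± 0.46, adjusted p = 0.446). Fgf8 had 28.1, 52, 27.5 and 26.6 CPM in wild type and 63.7, 53.4, 58.6 and 28.5 CPM in FCSPG, which overlapped (adjusted p = 0.62).

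Among receptors, Fgfr3 had 17.9, 19, 13.7 and 26.3 CPM in wild type and 40.1, 28.2, 28.1 and 45.5 CPM in FCSPG and did not overlap (log2 fold change 0.89 ± 0.29, adjusted p = 0.446; DESeq2 adjusted p 0.0167). Fgfr4 was also higher in 4 of 4 libraries, with 4.65, 6.57, 3.58 and 7.24 CPM in wild type and 12.7, 11, 9.24 and 16.4 CPM in FCSPG (log2 fold change 1.16 ± 0.50, adjusted p = 0.449). Klb, the co-receptor, had 0.898, 1.22, 0.506 and 2.48 CPM in wild type and 6.58, 6, 2.35 and 11 CPM in FCSPG (log2 fold change 2.35 ± 0.75, adjusted p = 0.446). In FPKM, Fgfr1 stood at 19.4 ± 1.98 in wild type and 19.1 ± 3.96 in FCSPG, above Fgfr2 (8.24 ± 1.17 and 7.96 ± 2.46), Fgfr3 (2.67 ± 0.736 and 4.92 ± 1.21) and Fgfr4 (1.55 ± 0.476 and 3.46 ± 0.86). The order of the 4 receptors was thus the same in both genotypes. Of 19 ligands and receptors in the list, all tested, 5 were higher and 1 lower at p under 0.05 (6.24% and 4.76% of all genes). The count of higher members at p under 0.05 became 2 without FCSPG 13 and 3 without WT 24 or WT 26. The count of lower members at p under 0.05 became 0 without WT 24, WT 25, WT 26, FCSPG 13, FCSPG 27 or FCSPG 32 and 3 without WT 33 or FCSPG 30. Fgfr3, Fgfr4 and Klb are also expressed in endoderm, whose markers were higher in FCSPG, and the part of that in their levels was not tested.

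Effectors that bind the receptor showed small differences. Frs2, the adaptor that links FGFR to Grb2 and the ERK pathway, averaged 55.9 ± 15.2 CPM in wild type and 51.2 ± 10 CPM in FCSPG (SD, n = 4 each) (adjusted p = 0.867). Crkl, another adaptor, averaged 111 ± 16.7 CPM in wild type and 107 ± 13 CPM in FCSPG (SD, n = 4 each) (adjusted p = 0.874), and Plcg1, phospholipase C gamma, 184 ± 24.6 CPM in wild type and 149 ± 12.3 CPM in FCSPG (SD, n = 4 each) (adjusted p = 0.468). Grb14, an inhibitory adaptor, was higher without overlap, with 3.01, 2.82, 2.37 and 2.64 CPM in wild type and 5.2, 5.57, 3.31 and 3.98 CPM in FCSPG (log2 fold change 0.74 ± 0.28, adjusted p = 0.446). In the list of 26 effectors and adaptors, all tested, 3 were higher and 3 lower at p under 0.05, with a median of -0.06. Together these were 23.1% of the list, against 11% of all genes. Higher members at p under 0.05 numbered 0 without WT 26 or FCSPG 13 and 1 without WT 24, FCSPG 27 or FCSPG 32. Lower members at p under 0.05 numbered 0 without WT 26, FCSPG 13 or FCSPG 27, 1 without WT 24 and 1 length-adjusted.

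Of 24 other receptor tyrosine kinase genes, all tested, 16 were lower and 8 higher (median -0.14, -0.11 length-adjusted). At p under 0.05, 3 were lower and 1 higher (4.76% and 6.24% of all genes). The tally of higher members at p under 0.05 was 0 without WT 24, WT 25, WT 26, FCSPG 13, FCSPG 27 or FCSPG 32. The tally of lower members at p under 0.05 was 5 without FCSPG 30 and 1 length-adjusted. Besides Pdgfra, Igf1r, the receptor for insulin-like growth factors, had 172, 159.5, 197 and 107 CPM in wild type and 87.5, 98.7, 125 and 88.4 CPM in FCSPG (log2 fold change -0.67 ± 0.25, adjusted p = 0.446). Only WT 33 lay in the FCSPG range. Pik3ca, a catalytic subunit of phosphoinositide 3-kinase, averaged 73.3 ± 7.78 CPM in wild type and 54.7 ± 5.2 CPM in FCSPG (SD, n = 4 each) (log2 fold change -0.42 ± 0.15, adjusted p = 0.446). Over 63 phosphoinositide genes, all tested, 4 were lower and 3 higher at p under 0.05, near the 4.76% and 6.24% of all genes, and the median of -0.09 became 0.00 in the length-adjusted fit. Members higher at p under 0.05 came to 0 without WT 24, WT 25, WT 26, FCSPG 13 or FCSPG 32, 1 without FCSPG 27, 5 without WT 33 and 6 without FCSPG 30. Members lower at p under 0.05 came to 2 without WT 26.

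Lists of extracellular matrix and adhesion genes had negative medians, and their transcripts are long (median 8074 bases for the collagens, against 4572 bases over genes of at least 5 CPM). For 22 collagens, all tested, the median log2 fold change was -0.50, and -0.38 length-adjusted, with 17 lower and 5 higher. Of these, 2 were lower and 0 higher at p under 0.05 (4.76% and 6.24% of all genes). The members lower at p under 0.05 were 0 without WT 26 or FCSPG 13, 1 without WT 24 or FCSPG 32, 6 without WT 33, 7 without FCSPG 30 and 1 length-adjusted. The collagen score of a library, the mean log2 level of the members relative to wild type, was 0.04, 0.16, 0.28 and -0.47 in wild type and -0.97, -0.13, 0.03 and -0.94 in FCSPG, so FCSPG 13 and 32 were low and FCSPG 27 and 30 lay in the wild-type range. These 2 low libraries also had the highest visceral endoderm scores (3.17 and 3.25), whose part in the matrix levels was not tested. For 29 laminins, fibronectin and basement membrane genes, all tested, the median was -0.29 (-0.18 length-adjusted) and 5 were lower at p under 0.05 (4.76% of all genes). The number lower at p under 0.05 was 1 without WT 26 or FCSPG 13, 2 without FCSPG 32, 3 without WT 24, 9 without FCSPG 30 and 2 length-adjusted. The 35 integrin and focal adhesion genes, all tested, had 30 lower and a median of -0.22 (-0.11 length-adjusted). Only 2 reached p under 0.05, both lower, near the 4.76% of all genes. The count of lower members at p under 0.05 became 0 without WT 26 and 1 without WT 25 or FCSPG 13. Of 31 matrix proteases and inhibitors, all tested, 27 were lower, with a median of -0.32 (-0.28 length-adjusted). At p under 0.05, 1 was lower and 0 higher (4.76% and 6.24% of all genes). The lower count was 2 without WT 25 or FCSPG 13, 3 without WT 33 and 5 without FCSPG 30.

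Fibronectin, Fn1, which paraxial mesoderm needs to form somites, had 1112, 941, 957 and 1358 CPM in wild type and 689, 807, 827 and 721 CPM in FCSPG and did not overlap (log2 fold change -0.52 ± 0.20, adjusted p = 0.446; DESeq2 adjusted p 0.027). Lama1, laminin alpha 1, had 83.1, 81.5, 106 and 52.1 CPM in wild type and 32, 54.1, 56.1 and 37.3 CPM in FCSPG (log2 fold change -0.85 ± 0.36, adjusted p = 0.446). Fbn2, a fibrillin of microfibrils, had 221, 211, 299 and 116 CPM in wild type and 39.6, 114, 165 and 41.4 CPM in FCSPG, with FCSPG 13 and 32 far below the rest (log2 fold change -1.24 ± 0.44, adjusted p = 0.446). Col1a1, a chain of type I collagen, overlapped widely, with 169, 178, 189 and 69.8 CPM in wild type and 64.8, 115, 149 and 72.1 CPM in FCSPG (adjusted p = 0.706). Col4a1, a chain of basement membrane type IV collagen, was level (log2 fold change 0.01 ± 0.33). Itgav, an integrin alpha chain, was lower without overlap, with 39.5, 35.7, 51.9 and 40.5 CPM in wild type and 20, 26, 32.5 and 31.2 CPM in FCSPG (log2 fold change -0.61 ± 0.22, adjusted p = 0.446), whereas Itgb1 gave -0.18 ± 0.18.

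Heparan sulphate proteoglycans bind FGFs and shape their range. Of 25 genes of this list, all tested, 21 were lower and 4 higher, with 2 lower and 1 higher at p under 0.05 (4.76% and 6.24% of all genes). Lower members at p under 0.05 numbered 1 without WT 26 or FCSPG 13, 5 without WT 33 and 6 without FCSPG 30. Sulf2, which removes sulphate groups from heparan sulphate, had 212, 188, 261 and 126 CPM in wild type and 77.2, 128, 159 and 77.4 CPM in FCSPG (log2 fold change -0.84 ± 0.27, adjusted p = 0.446). Sdc4, syndecan 4, ran the other way, with 20, 22, 10.5 and 17.1 CPM in wild type and 45.9, 31.1, 29.5 and 33.2 CPM in FCSPG and no overlap (log2 fold change 1.01 ± 0.33, adjusted p = 0.446; DESeq2 adjusted p 0.00505).

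Of 19 cadherins and regulators of epithelial state, all tested, 14 were lower and 5 higher (median -0.27, -0.37 length-adjusted). At p under 0.05, 4 were higher and 3 lower (6.24% and 4.76% of all genes). The tally of higher members at p under 0.05 was 1 without WT 26, FCSPG 13 or FCSPG 32 and 2 without WT 24. The tally of lower members at p under 0.05 was 0 without WT 26 or FCSPG 32 and 1 without FCSPG 13. The groups overlapped for all 6 genes of this list valued next. Cdh1 (E-cadherin), the cadherin of epithelia, had 71, 76.5, 54.5 and 104 CPM in wild type and 227, 111, 90.8 and 247 CPM in FCSPG (log2 fold change 1.14 ± 0.36, adjusted p = 0.446). Cdh2 (N-cadherin), of mesoderm and neural tissue, had 178, 172, 251 and 177 CPM in wild type and 97.4, 132, 175 and 104 CPM in FCSPG (log2 fold change -0.61 ± 0.23, adjusted p = 0.446). Zeb1, a repressor of epithelial genes, had 52.5, 46, 75 and 31.5 CPM in wild type and 12.7, 33.7, 42.7 and 19.6 CPM in FCSPG, where WT 33 lay below FCSPG 27 and 30 (log2 fold change -0.91 ± 0.35, adjusted p = 0.446). Epithelial genes Epcam and Cldn6 had log2 fold changes of 0.65 ± 0.25 and 1.06 ± 0.43. Snai1, the repressor that drives cells out of the streak, had 32.9, 32.2, 41.4 and 55.2 CPM in wild type and 36.3, 25.5, 25.1 and 31.8 CPM in FCSPG (adjusted p = 0.62). The 4 higher at p under 0.05, Cdh1, Epcam, Cldn6 and Cldn7, are genes of epithelia such as the endoderm, and the part of the endoderm markers in them was not tested.

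Guidance genes were lower for 27 of 33 members, all tested, with a median of -0.30 and -0.19 length-adjusted. At p under 0.05, 5 were lower and 0 higher (4.76% and 6.24% of all genes). Members lower at p under 0.05 came to 2 without WT 26 or FCSPG 13. Slit2, a secreted repellent, had 24.2, 29.3, 34.4 and 22.7 CPM in wild type and 14.3, 20.2, 16.2 and 21 CPM in FCSPG (log2 fold change -0.63 ± 0.19, adjusted p = 0.446), and Plxna2, a semaphorin receptor, 52.3, 47.5, 68.6 and 50.9 CPM in wild type and 27.9, 33, 32.8 and 46.4 CPM in FCSPG (log2 fold change -0.64 ± 0.25, adjusted p = 0.446), both without overlap. Efna3, an ephrin, was lower in 4 of 4 libraries, with log2 fold change -0.78 ± 0.27.

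Lysosomal genes were higher in FCSPG in nearly every case. Of 33 genes written in the list, 32 were tested, 31 were higher and 1 lower, and 8 were higher at p under 0.05 against 6.24% of all genes. The median log2 fold change was 0.41, the same in the length-adjusted fit (0.41), and 0.34 to 0.48 when 1 library was left out. The library score, the mean log2 level of the members relative to wild type, was -0.02, 0.04, -0.23 and 0.21 in wild type and 0.86, 0.49, 0.14 and 0.94 in FCSPG. FCSPG 13 and 32 were far above wild type, and FCSPG 30 lay below WT 33. The members higher at p under 0.05 were 5 without FCSPG 32. Each library's visceral endoderm score followed the same order within FCSPG, with 0.59, 0.20, -2.40 and 1.60 in wild type and 3.17, 2.34, 1.03 and 3.25 in FCSPG, and its part in the lysosomal result was not tested.

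Ctsz, a lysosomal cysteine protease, had 67.1, 90.2, 45.2 and 82.7 CPM in wild type and 236, 141, 100.3 and 207 CPM in FCSPG and did not overlap (log2 fold change 1.26 ± 0.40, adjusted p = 0.446; DESeq2 adjusted p 0.00253). Ctsb, another cathepsin, had 84.7, 85.6, 65.5 and 117 CPM in wild type and 310.0, 162, 100 and 324 CPM in FCSPG (log2 fold change 1.35 ± 0.47, adjusted p = 0.446). Hexa, a subunit of beta-hexosaminidase, had 30.8, 38.2, 23.9 and 36 CPM in wild type and 76.6, 50, 40.8 and 73 CPM in FCSPG, again without overlap (log2 fold change 0.90 ± 0.31, adjusted p = 0.446). Tfeb, the transcription factor that activates lysosomal genes by binding the CLEAR element, whose core is CACGTG, had 1.64, 2.25, 1.28 and 4.14 CPM in wild type and 17.9, 7.9, 2.56 and 15.4 CPM in FCSPG (log2 fold change 2.23 ± 0.73, adjusted p = 0.446). Lamp1, the lysosomal membrane protein, gave 0.52 ± 0.26 and Ctsd, cathepsin D, 0.28 ± 0.20.

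Because Tfeb is in this list, the 250 bases before the start of each gene were searched, on both strands, in the RefSeq promoter table (build GRCm38.p6), which names 27025 genes. The search covered 9 motifs, chosen after the data were seen, in 4 lists. CACGTG was found for 10 of 25 lysosomal genes with a promoter (40%) and 6.86% of all genes, and in 4 of 17 cholesterol genes, 6 of 33 late endosome genes and 4 of 27 mitochondrial import genes. Its longer forms overlap it: the 10-letter CLEAR element was found for 1 of 25 lysosomal genes, Cln3 (0.27% of all), TCACGTGA for 5 (0.907%) and CACGTGAC for 7 (2.11%). For the 17 cholesterol genes, the 10-letter sterol regulatory element was found for 0 (0.0814% of all genes), TCACCCCAC for 1 (0.555% of all genes), CACCCCAC for 2 (2.98%) and CATTGGC for 4 (5.05%), and a further 10-letter string, not spelled out here, was found in 0 genes of any of the 4 lists (0.0444%). In the late endosome list the CLEAR element was found for 3 genes, TCACGTGA for 5, CACGTGAC for 4, TCACCCCAC for 0, CACCCCAC for 0 and CATTGGC for 0. In the mitochondrial import list these were 0, 0, 0, 0, 1 and 1, in the same order. In the cholesterol list the CLEAR element, TCACGTGA and CACGTGAC were found for 0, 0 and 3 genes, and in the lysosome list TCACCCCAC, CACCCCAC and CATTGGC for 0, 0 and 1. A match is a string of letters, not a site shown to be bound. The search used sequence alone and no count, so a list's share with a motif says nothing about the genotypes. Ctsz, Ctsb and Hexa, valued above, were not among the 10 lysosomal genes with CACGTG. Whether genes with the motif differed more between the genotypes was not tested. The stretches below hold CACGTG in capitals, in a promoter chosen from among the matches: Lamp1 with 4 matches, Cln3 with 2, and Glb1 with 1. Ctsd has 2 matches in the 250 bases, of which 1 lies in the stretch printed.
Lamp1: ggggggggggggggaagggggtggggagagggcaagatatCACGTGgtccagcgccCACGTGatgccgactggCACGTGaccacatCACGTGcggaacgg
Ctsd: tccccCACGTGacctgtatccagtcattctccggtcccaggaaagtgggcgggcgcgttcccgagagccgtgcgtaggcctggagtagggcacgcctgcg
Glb1: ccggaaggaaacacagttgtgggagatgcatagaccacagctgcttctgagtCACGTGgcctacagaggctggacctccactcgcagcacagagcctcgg
Cln3: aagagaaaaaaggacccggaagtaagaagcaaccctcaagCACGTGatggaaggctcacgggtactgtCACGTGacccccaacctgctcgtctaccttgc

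These stretches, written 5′ to 3′ along the gene, lie at chr8:13159060-13159159 (+ strand) for Lamp1, chr7:142387978-142388077 (- strand) for Ctsd, chr9:114400978-114401077 (+ strand) for Glb1 and chr7:126583326-126583425 (- strand) for Cln3, in GRCm38.p6 and so not in the mm39 coordinates of the count table. The beta-galactosidase gene Glb1 had 12.3, 10.1, 11.3 and 12.4 CPM in wild type and 17.3, 14.7, 14 and 22.1 CPM in FCSPG and did not overlap (log2 fold change 0.56 ± 0.31). Cln3, a lysosomal membrane protein, had 11.2, 12.6, 8.48 and 10.1 CPM in wild type and 12.9, 11.9, 12.8 and 13 CPM in FCSPG, where the groups overlapped (0.25 ± 0.17).

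Genes of earlier steps of endocytosis had a median near 0. The clathrin and early endosome list had 23 of 51 members higher, all tested, and a median of -0.04. Within it Dab2, a cargo adaptor of clathrin coats that is strong in visceral endoderm, had 68.2, 63.7, 46.6 and 145 CPM in wild type and 405, 188, 87.7 and 452 CPM in FCSPG (log2 fold change 1.81 ± 0.69, adjusted p = 0.446), and Cltc, the clathrin heavy chain, 345, 322, 371 and 427 CPM in wild type and 487, 372, 326 and 529 CPM in FCSPG (adjusted p = 0.766). Rab4a, of recycling endosomes, was higher without overlap (log2 fold change 0.86 ± 0.33, adjusted p = 0.446).

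The presomitic and somite lists had negative medians. Of 19 presomitic genes, all tested, 15 were lower with a median of -0.74 (-0.83 length-adjusted and -0.85 to -0.62 when a library was left out). At p under 0.05, 3 were lower and 1 higher (4.76% and 6.24% of all genes). For 5 lower ones the groups did not overlap (3.35% of all genes). The number higher at p under 0.05 was 0 without FCSPG 13 and 2 without WT 33. The number lower at p under 0.05 was 1 without WT 24, WT 25, WT 26, FCSPG 30 or FCSPG 32. Tbx6, the transcription factor that gives paraxial mesoderm its identity (chr7:126380655-126384732), had 52.7, 58.1, 47.2 and 47.7 CPM in wild type and 31.9, 21.9, 15.6 and 22.6 CPM in FCSPG. Every FCSPG library was below every wild-type library (log2 fold change -1.16 ± 0.50, adjusted p = 0.446; DESeq2 adjusted p 5.12e-05). Msgn1, a target of Tbx6 and Wnt3a in the presomitic mesoderm, had 21.6, 20.8, 32.7 and 45.4 CPM in wild type and 33.1, 10.1, 3.52 and 18.1 CPM in FCSPG, where FCSPG 13 was in the wild-type range (adjusted p = 0.663). Ripply1, which helps to set the segment border, was lower without overlap (log2 fold change -0.94 ± 0.36, adjusted p = 0.446). Mesp1, an early mesoderm gene of the streak, was higher, with 1.43, 2.96, 0.934 and 6.93 CPM in wild type and 34.9, 6.61, 1.82 and 15.6 CPM in FCSPG (log2 fold change 2.27 ± 0.80, adjusted p = 0.446).

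Somite genes were lower for 15 of 17 members tested of 21 written, with a median of -0.69 (-1.06 to -0.43 when a library was left out), but 1 of them had p under 0.05, near the 4.76% of all genes. The count of lower members at p under 0.05 became 0 without WT 24, FCSPG 13 or FCSPG 32. Their library score was 0.09, 0.30, 0.11 and -0.50 in wild type and -1.58, -0.06, 0.19 and -1.38 in FCSPG, so FCSPG 13 and 32 were low and FCSPG 27 and 30 lay within the wild-type range. Meox1, of newly formed somites, had 88.4, 87.8, 75.2 and 24.3 CPM in wild type and 23.9, 42.9, 57.8 and 37.8 CPM in FCSPG (adjusted p = 0.706). Foxc1, of paraxial mesoderm, had 49.7, 54.8, 61.8 and 30.7 CPM in wild type and 12.2, 28.8, 37.6 and 22.3 CPM in FCSPG (adjusted p = 0.509). Uncx, of the posterior part of each somite, had no count in FCSPG 13 and a low level in FCSPG 32 and WT 33, with 9.72, 10.8, 7.59 and 0.569 CPM in wild type and 0, 5.66, 10.5 and 0.252 CPM in FCSPG.

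Intermediate mesoderm, from which kidney and gonad arise, had 10 of 12 tested members lower of 13 written (median -0.62). At p under 0.05, 3 were lower (4.76% of all genes). Lower members at p under 0.05 numbered 1 without WT 24, WT 25, FCSPG 13, FCSPG 27 or FCSPG 32. Pax8 had 5.81, 5.68, 2.02 and 1.19 CPM in wild type and 0.179, 0.333, 2.51 and 0.252 CPM in FCSPG (log2 fold change -2.16 ± 0.94, adjusted p = 0.449), and Emx2 8.61, 7.09, 7.63 and 0.621 CPM in wild type and 0.359, 1.05, 2.14 and 0.806 CPM in FCSPG (log2 fold change -2.45 ± 0.82, adjusted p = 0.446). In both, WT 33 was lower than the other wild-type libraries. Osr1 averaged 37.1 ± 9.61 CPM in wild type and 22.1 ± 7.71 CPM in FCSPG (SD, n = 4 each) (adjusted p = 0.612).

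**Figure D3:**
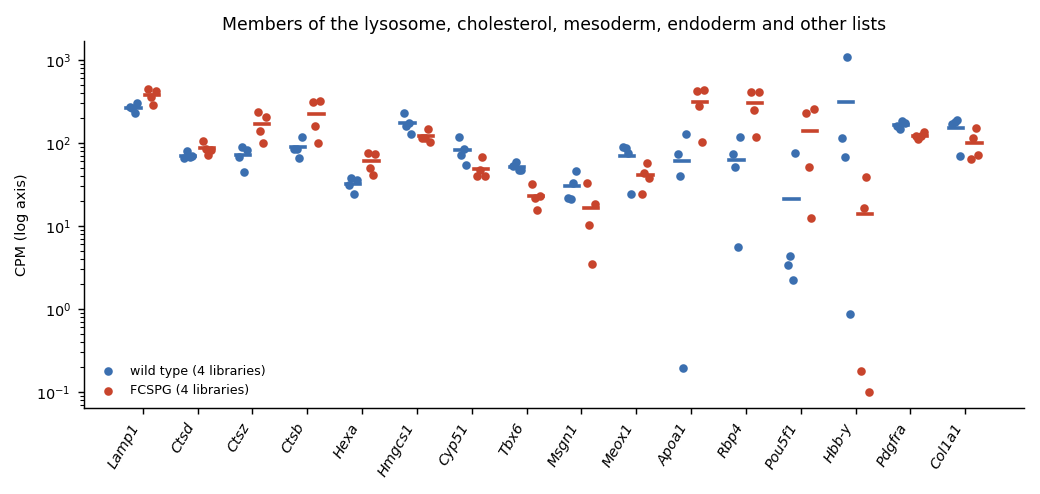
Level of members of the lysosome, cholesterol, mesoderm, endoderm and other lists in each library, in CPM on a log axis, with wild type in blue, FCSPG in red and the group mean as a bar. Ctsz, Hexa and Rbp4 are higher in FCSPG without overlap, Tbx6 and Pdgfra lower, and Hbb-y runs from 0.88 to 1072 CPM within wild type.

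Progenitor genes of the tailbud overlapped between genotypes, with T, the mesodermal factor brachyury, at 128, 139.9, 100.1 and 123 CPM in wild type and 126, 78.6, 62.2 and 88.4 CPM in FCSPG (adjusted p = 0.615). Sox2, its neural counterpart, had 46, 55.4, 49.2 and 40.3 CPM in wild type and 30.3, 86.5, 97.6 and 42.7 CPM in FCSPG (adjusted p = 0.823), where FCSPG 27 and 30 stood above all other libraries. Cdx2, of the caudal body axis, had 245, 288, 177 and 339.9 CPM in wild type and 579.7, 359, 231 and 320.4 CPM in FCSPG (adjusted p = 0.695). Greb1 was lower at 277, 209.7, 334 and 134 CPM in wild type and 61.1, 114, 181 and 77.9 CPM in FCSPG (log2 fold change -1.14 ± 0.33, adjusted p = 0.446). Of 16 members, all tested, 2 were lower and 0 higher at p under 0.05 (4.76% and 6.24% of all genes). The tally of lower members at p under 0.05 was 1 without WT 24, WT 25, WT 26, FCSPG 13, FCSPG 27 or FCSPG 32. The notochord genes Shh and Noto were near 0 in FCSPG 13, at 0.239 and 0.12 CPM. In the other 3 FCSPG libraries Noto ranged from 5.98 to 6.80 CPM, as in wild type (6.03 to 7.24 CPM). Shh had 21.9, 22, 23.9 and 13.5 CPM in wild type and 0.239, 21.3, 21.3 and 9.62 CPM in FCSPG, so FCSPG 32 also lay below all wild-type libraries. The neural factor Pax6 was also near 0 in FCSPG 13, with 11.4, 20, 6.54 and 3.21 CPM in wild type and 0.0598, 10.8, 34.6 and 1.46 CPM in FCSPG.

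Genes of visceral endoderm and yolk sac, the epithelium that surrounds the embryo, were higher in every case. Of 24 genes written, 22 were tested and all 22 were higher, 17 of them at p under 0.05 (6.24% of all genes). The median log2 fold change was 2.30, or 2.09 length-adjusted, where 21 were higher and 1 lower. Members higher at p under 0.05 came to 5 without WT 25 or FCSPG 13 and 7 without WT 24 or FCSPG 32. DESeq2 on 2 groups called 2 of the 22, both higher (2.08% of all genes). Rbp4, the retinol carrier, had 72.6, 51.4, 5.64 and 119 CPM in wild type and 414, 253, 119 and 413 CPM in FCSPG. FCSPG 30 and WT 33 met at nearly the same level (log2 fold change 2.27 ± 0.85, adjusted p = 0.446). Apoe, an apolipoprotein, had 114, 107, 13.5 and 321 CPM in wild type and 1231, 586, 176 and 1215 CPM in FCSPG (log2 fold change 2.53 ± 0.92, adjusted p = 0.446). Apoa1 had 74.3, 39.6, 0.195 and 129 CPM in wild type and 427, 276, 103 and 434 CPM in FCSPG, close to 0 in WT 26 (adjusted p = 0.462).

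Ihh, the hedgehog ligand made by yolk sac endoderm, had 6.55, 8.03, 2.45 and 9.36 CPM in wild type and 21.8, 20.9, 12 and 19.5 CPM in FCSPG and did not overlap (log2 fold change 1.50 ± 0.54, adjusted p = 0.446; DESeq2 adjusted p 0.00406). Sox17, an endoderm factor, had 12.1, 14.9, 9.38 and 27.3 CPM in wild type and 46.2, 38.5, 17.4 and 35.4 CPM in FCSPG (log2 fold change 1.11 ± 0.47, adjusted p = 0.446). In the list of definitive endoderm and hindgut, 15 of 19 tested members of 22 written were higher. At p under 0.05, 6 were higher and 1 lower (6.24% and 4.76% of all genes). The members higher at p under 0.05 were 1 without FCSPG 13 and 2 without WT 24, WT 25, WT 26 or FCSPG 32. The members lower at p under 0.05 were 0 without FCSPG 13 or FCSPG 30 and 0 length-adjusted. The part of the dissection in these levels was not tested.

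Primitive blood genes were lower, and 1 wild-type library stood high. Of 15 tested members of 17 written, 13 were lower, 6 at p under 0.05 (4.76% of all genes), with a median of -1.78. Without WT 26 the median was -0.51. The number lower at p under 0.05 was 0 without WT 26 and 3 without FCSPG 13 or FCSPG 27. Among the embryonic globins were Hbb-y at 113, 68.2, 1072 and 0.88 CPM in wild type and 0.179, 16.5, 38.8 and 0.101 CPM in FCSPG and Hba-x at 179, 162, 847 and 82.6 CPM in wild type and 3.59, 65.9, 130.3 and 14.4 CPM in FCSPG. Endothelial genes were lower for 16 of 21 members, all tested (median -0.52, -0.64 length-adjusted). At p under 0.05, 2 were lower and 1 higher (4.76% and 6.24% of all genes), and 5 and 1 length-adjusted. The groups overlapped for every member. The library score was 0.10, 0.23, 0.15 and -0.48 in wild type and -0.73, -0.29, 0.02 and -0.94 in FCSPG, so these overlapped too. Cdh5, the endothelial cadherin, had 49.4, 54.3, 99 and 22.6 CPM in wild type and 13.1, 31.4, 45 and 9.57 CPM in FCSPG (adjusted p = 0.474). For Kdr, a VEGF receptor, adjusted p was 0.804.

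Pluripotency and primitive streak genes were higher for 18 of 23 tested members of 24 written, with a median of 0.79. At p under 0.05, 8 were higher (6.24% of all genes). Pou5f1 had 3.38, 4.32, 2.26 and 75 CPM in wild type and 230.4, 51, 12.4 and 259 CPM in FCSPG (log2 fold change 2.71 ± 1.23, adjusted p = 0.453). FCSPG 13 and 32 were the highest, FCSPG 27 and 30 lay below WT 33, and WT 33 stood far above the other wild-type libraries. Nanog had 0.264, 0.282, 0.739 and 1.81 CPM in wild type and 7.89, 1.81, 2.3 and 21.9 CPM in FCSPG (log2 fold change 3.45 ± 0.92, adjusted p = 0.446), and Eomes, of the streak and endoderm, 0.264, 0.329, 0.117 and 0.569 CPM in wild type and 3.95, 0.523, 0.32 and 4.94 CPM in FCSPG (log2 fold change 2.93 ± 1.20, adjusted p = 0.446). Without WT 33 the median of the list was 1.63, and without FCSPG 32 it was 0.49. The count of higher members at p under 0.05 became 2 without WT 25, FCSPG 13 or FCSPG 32, 3 without WT 24 or WT 26 and 14 without WT 33. The labels give the stage of all libraries as E8.5 and no somite count, and the part of stage within that day in these values was not tested.

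**Figure D4:**
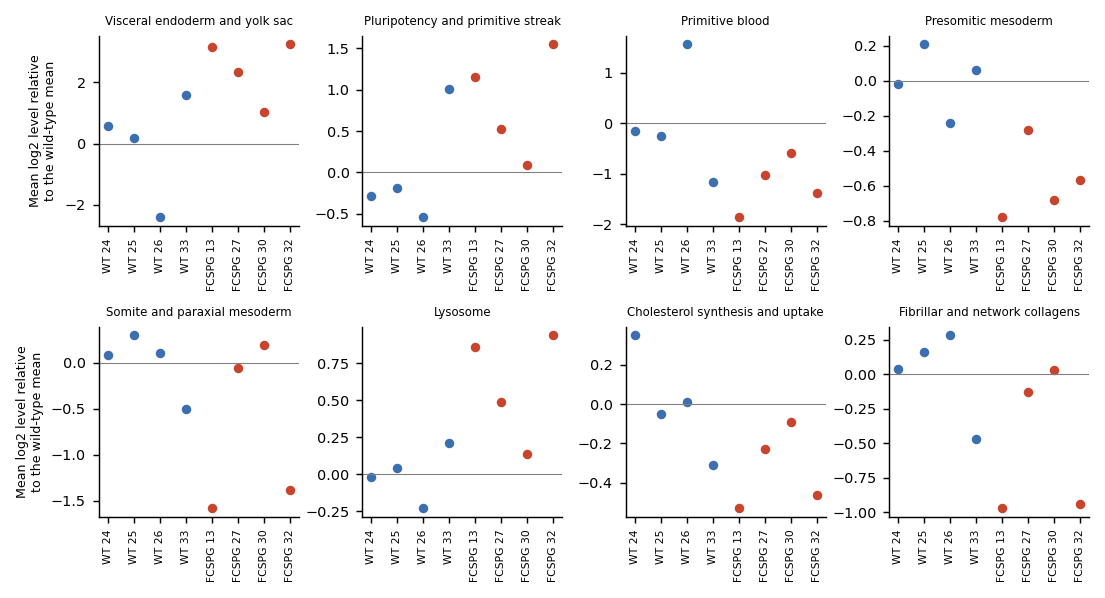
Mean log2 level of the members of 8 lists in each library, relative to the wild-type mean (wild type blue, FCSPG red). FCSPG 13 and 32 lie farthest from wild type in the visceral endoderm, lysosome, somite and collagen panels. WT 33 is the wild-type library nearest to FCSPG 13 and 32 in every panel but presomitic mesoderm.

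In the Wnt list of 42 genes, all tested, 1 was higher and 3 lower at p under 0.05 (6.24% and 4.76% of all genes), with a median of -0.12. Higher members at p under 0.05 numbered 2 without WT 33. Lower members at p under 0.05 numbered 1 without WT 26. The BMP and TGF-beta list had 22 of 36 tested members of 39 written higher and a median of 0.17. At p under 0.05, 5 were higher and 4 lower (6.24% and 4.76% of all genes). The tally of higher members at p under 0.05 was 1 without WT 24, WT 26 or FCSPG 13, 3 without FCSPG 27 and 3 length-adjusted. The tally of lower members at p under 0.05 was 0 without WT 26 or FCSPG 13, 1 without FCSPG 32, 2 without WT 24, WT 25 or FCSPG 27 and 7 without FCSPG 30. In the retinoic acid list, with 22 tested of 23 written, 1 was higher and 1 lower at p under 0.05, near the shares of all genes. Members higher at p under 0.05 came to 0 without WT 25 and 3 without WT 33. Members lower at p under 0.05 came to 0 without WT 24, WT 25, FCSPG 13, FCSPG 27 or FCSPG 32 and 2 without WT 33 or FCSPG 30. Wnt5a, the ligand of axis elongation and planar polarity, had 159.9, 147, 239.6 and 166 CPM in wild type and 115, 102, 99.2 and 100.5 CPM in FCSPG and did not overlap (log2 fold change -0.77 ± 0.40, adjusted p = 0.489; DESeq2 adjusted p 0.00253). Wnt3a, of the NMP zone, and Axin2, a Wnt target, overlapped between the groups (adjusted p = 0.955 and 0.77). Fzd1, a Wnt receptor, had 36.5, 30.6, 41.4 and 30.6 CPM in wild type and 15.8, 29.2, 25.9 and 20.1 CPM in FCSPG (log2 fold change -0.61 ± 0.19, adjusted p = 0.446), and Sfrp5, a Wnt inhibitor of foregut and visceral endoderm, 0.423, 1.74, 0.195 and 3.21 CPM in wild type and 4.6, 7.99, 3.9 and 15.1 CPM in FCSPG (log2 fold change 2.51 ± 0.78, adjusted p = 0.446). The BMP targets Id1, Id3 and Msx1 were higher at 0.50 ± 0.21, 0.62 ± 0.21 and 0.82 ± 0.34 (adjusted p = 0.446 for each). Length-adjusted, these were 0.26, 0.46 and 0.74. FCSPG 13 was the highest library for each. Id3 had 128, 184, 106 and 176 CPM in wild type and 325, 198, 186 and 208 CPM in FCSPG, without overlap. The groups overlapped for Id1 and Msx1, and Msx1 had 141, 213, 106 and 274 CPM in wild type and 520, 320, 211 and 245 CPM in FCSPG. Ltbp1, which anchors latent TGF-beta in matrix, was lower without overlap (log2 fold change -0.97 ± 0.37, adjusted p = 0.446). The retinoic acid genes Aldh1a2, the synthetic enzyme, and Cyp26a1, the degrading one, gave adjusted p = 0.6 and 0.602.

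Genes of cholesterol synthesis and uptake were mostly lower. Of 25 genes, all tested, 20 were lower, 11 at p under 0.05 (4.76% of all genes) and 0 higher, with a median of -0.31 and -0.37 length-adjusted. Hmgcs1, an early enzyme of the pathway, had 229, 158, 175 and 129 CPM in wild type and 115, 116, 147 and 102 CPM in FCSPG (log2 fold change -0.52 ± 0.18, adjusted p = 0.446). Cyp51, a sterol demethylase, had 119, 71.6, 83.8 and 54.3 CPM in wild type and 39.5, 47.3, 67.4 and 40.1 CPM in FCSPG (log2 fold change -0.76 ± 0.23, adjusted p = 0.446). In both genes WT 24 was the highest library and FCSPG 30 lay in the wild-type range. The members lower at p under 0.05 were 3 without WT 24, 5 without FCSPG 13 and 7 without WT 26. DESeq2 called 0 members.

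Genes of mitochondrial import and assembly were higher for 29 of 30 tested members of 31 written, with a median of 0.28 and 0.19 length-adjusted. At p under 0.05, 11 were higher (6.24% of all genes). The number higher at p under 0.05 was 3 without FCSPG 13 and 7 without WT 26. They are short genes, with a median of 2538 bases. Timm8b, a carrier chaperone of the intermembrane space, had 49.8, 52.9, 44.8 and 52.2 CPM in wild type and 81.4, 71.6, 59.8 and 67.2 CPM in FCSPG (log2 fold change 0.49 ± 0.13, adjusted p = 0.446), and its length-adjusted log2 fold change was 0.20. Romo1, of the inner membrane, had 38.1, 43.6, 29.5 and 39.1 CPM in wild type and 72.6, 60.2, 48.2 and 44.1 CPM in FCSPG (log2 fold change 0.58 ± 0.18, adjusted p = 0.446), and Tomm20, the import receptor, 295, 312, 262 and 329 CPM in wild type and 495, 379, 315 and 395 CPM in FCSPG (log2 fold change 0.40 ± 0.14, adjusted p = 0.446).

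The glycolysis and hypoxia list had 20 of 33 members lower and 13 higher, all tested, and a median of -0.05. At p under 0.05, 4 were higher and 0 lower (6.24% and 4.76% of all genes). The count of higher members at p under 0.05 became 1 without WT 26 and 2 without WT 24, FCSPG 13 or FCSPG 27. Among its members, the glucose transporter gene Slc2a3 (GLUT3) had 1428, 1445, 1043 and 1998 CPM in wild type and 2643, 2475, 2020.0 and 2895 CPM in FCSPG without overlap (log2 fold change 0.76 ± 0.32, adjusted p = 0.446; DESeq2 adjusted p 0.0143), and Slc2a1 (GLUT1) 852, 1119, 603 and 1068 CPM in wild type and 1054, 1551, 1465 and 1149.9 CPM in FCSPG (log2 fold change 0.52 ± 0.20, adjusted p = 0.446). Adm, the hypoxia-inducible adrenomedullin, had 0.898, 1.22, 0.623 and 0.724 CPM in wild type and 4.78, 1.95, 2.35 and 2.77 CPM in FCSPG (log2 fold change 1.77 ± 0.40, adjusted p = 0.446). Gpx4, the lipid peroxidase, and Gstm1, a glutathione transferase, were higher without overlap (0.59 ± 0.19 and 1.03 ± 0.44), while Tfrc, the transferrin receptor, was lower without overlap (-0.66 ± 0.23).

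Of 24 mitosis genes, all tested, 6 were lower and 1 higher at p under 0.05 (4.76% and 6.24% of all genes), with a median of -0.11 and -0.07 length-adjusted. Higher members at p under 0.05 numbered 0 without WT 24, WT 25, WT 26, WT 33, FCSPG 13 or FCSPG 27 and 0 length-adjusted. Lower members at p under 0.05 numbered 10 without FCSPG 32 and 3 length-adjusted. Mki67, the proliferation marker, had 507, 510.1, 466 and 401 CPM in wild type and 365, 394, 392 and 338 CPM in FCSPG (log2 fold change -0.34 ± 0.10, adjusted p = 0.446), and Cenpe, a kinetochore motor, averaged 121 ± 10.6 CPM in wild type and 94.5 ± 7.15 CPM in FCSPG (SD, n = 4 each) (log2 fold change -0.36 ± 0.10, adjusted p = 0.446). Both are long transcripts and their length-adjusted log2 fold changes were -0.20 and -0.24. Replication genes were level (median -0.01 over 26 members). Cdkn1a, the p53-induced cell cycle inhibitor, had 13.5, 18.8, 15.9 and 17.8 CPM in wild type and 38.1, 25.1, 18.4 and 30.4 CPM in FCSPG (log2 fold change 0.76 ± 0.24, adjusted p = 0.446; DESeq2 adjusted p 0.0383). In cilium genes 21 of 28, all tested, were lower, 4 at p under 0.05 (4.76% of all genes), among them Kif3a, a ciliary motor (log2 fold change -0.38 ± 0.16, adjusted p = 0.446). The tally of lower members at p under 0.05 was 0 without WT 26, WT 33 or FCSPG 13, 1 without FCSPG 27 and 1 length-adjusted.

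**Figure D5:**
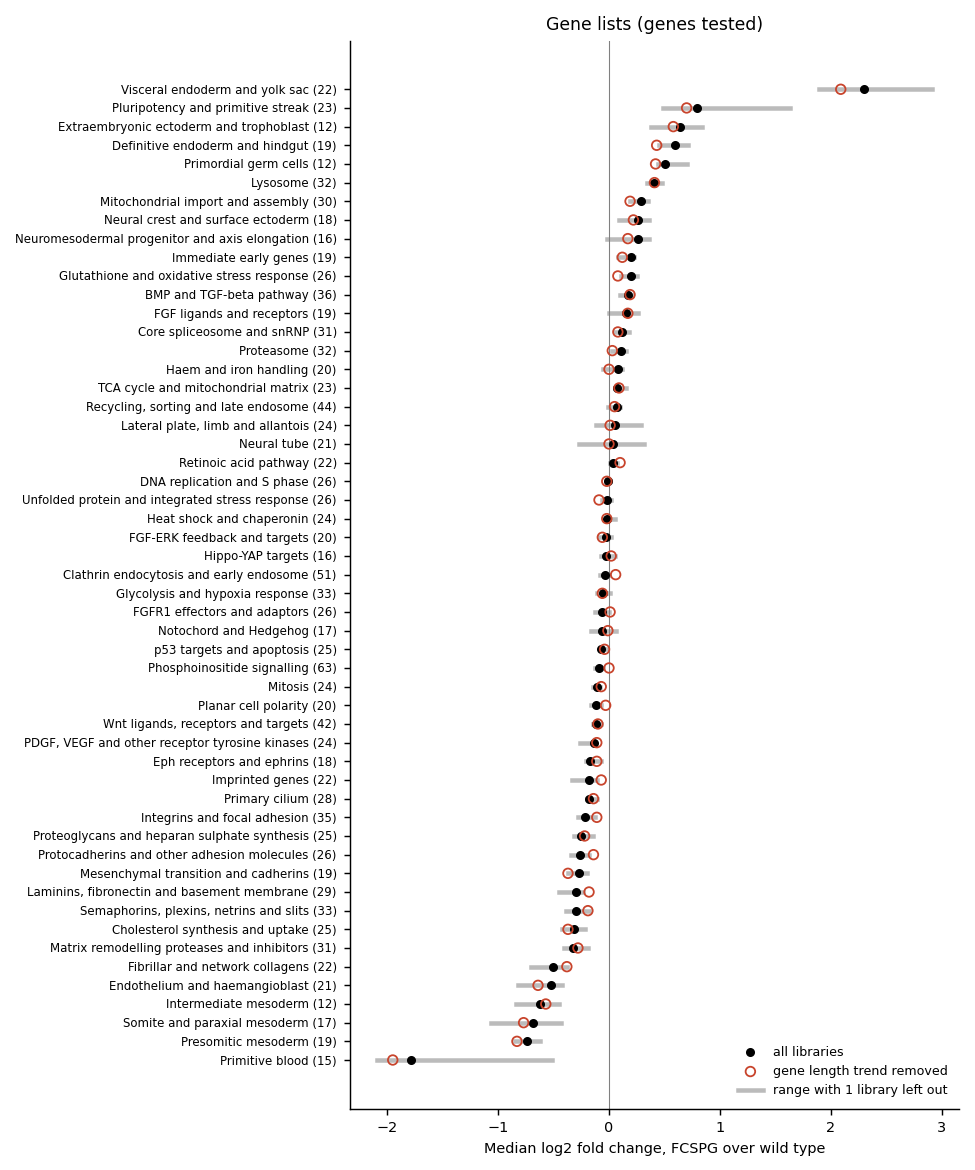
Median log2 fold change of FCSPG over wild type for each gene list but the sex-linked one (number of genes tested in parentheses), with all libraries (black), with the gene length trend removed (red circle), and the range with 1 library left out (grey). Visceral endoderm lies highest at 2.30 and primitive blood lowest at -1.78, and the primitive blood range reaches -0.51.

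When WT 33 was left out, edgeR called 4 genes at an adjusted p under 0.05, named here after their values were seen. Tg, thyroglobulin, had 2.59, 2.02, 2.41 and 0.31 CPM in wild type and 0.0598, 0.0952, 0.107 and 0 CPM in FCSPG. Gm7931, Gm10182 and Gm11249, predicted genes, were the others, with Gm11249 at 103, 201, 111 and 33.1 CPM in wild type and 35.9, 26.9, 30.1 and 32.1 CPM in FCSPG. In each of the 4, WT 33 was lower than the other 3 wild-type libraries, so that it stood nearer to the FCSPG libraries, and with all libraries none of them was called (Tg log2 fold change -4.68 ± 0.77, adjusted p = 0.446).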

How the data were processed

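RNA-seq was compared between 4 FCSPG and 4 wild-type tailbud libraries. The gene counts were deposited by the authors as raw whole numbers per gene. Per the submitters' processing notes, reads were aligned with HISAT2 to mm39 and counted with featureCounts, and DESeq2 was used. Versions, the annotation release and the strand setting are not given in the sources used here, so overlapping and antisense genes, and near-identical copies, are uncertain. FPKM values were deposited by the authors and are used to compare levels between genes. The authors' deposited table of wild type against FCSPG gives log2 fold changes and p-values for genes with p under 0.05, and its sign was turned to FCSPG over wild type.

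Genes were tested with edgeR 4.0.16 (R 4.3.3) on the counts of all 11 libraries, with TMM factors, filterByExpr, 3 genotype groups, the quasi-likelihood test and Benjamini-Hochberg adjustment at 0.05. Libraries held 16014698 to 25453070 counts, and the common coefficient of variation was 0.325. The standard error of a log2 fold change was its size divided by the square root of F. The labels do not say that libraries are separate animals, so p-values measure the spread between these libraries, which may be technical. Alternatives were DESeq2 size factors, no filter, 1 CPM in at least 4 libraries, the 2 groups alone, DESeq2 1.42.0, limma-voom (limma 3.58.1), each library left out, and, added after the data were seen, a lowess trend on gene length (span 0.3) removed in each library. Scripts were tested on simulated data. Library scores average log2(CPM + 0.5).

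The members, gene lists and tests were chosen with earlier results of these data known. Genes named are Fgfr1 and the 15 protein-coding or lncRNA genes of smallest p per direction with a mean of at least 5 CPM. Ribosomal, respiratory chain, Notch, Hox and Y-linked genes, Xist and Tsix were left out of these 15. Also named are, per list, the first 3 as written and the 4 of smallest p with a mean of at least 1 CPM. Outside this rule, Adamtsl2, Tg, the predicted genes, Cldn6, Cldn7, Cln3, Etv5, Fgf17, Fgf18, Fgfr2, Fgfr4, Glb1 and Spry2 were named after their values were seen. Promoters came from RefSeq (GRCm38.p6), and the 100 bases printed were taken after matches were seen. Some genes and 1 gene list are not reported here.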

Additional observations from a re-analysis of the deposited data

Results flagged for a closer look

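In 22 of 360 groups of 4 libraries examined, the gap between the highest or lowest library and the next one, as a share of the group's range, passed Dixon's critical value, and chance gives such a gap in about 1 of 20 groups. For single genes in FCSPG, library 30 stood high for Sema6d (11.7 CPM) and Pax8 (2.51 CPM), and library 13 stood high for Eogt (18.2 CPM), Bri3 (53.3 CPM), Id1 (239 CPM) and Id3 (325 CPM) and low for Noto (0.12 CPM).

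In wild type, library 33 stood high for Prss12 (2.95 CPM), Pou5f1 (75.0 CPM) and Axin2 (179 CPM) and low for Col1a1 (69.8 CPM). Library 26 stood high for Cdh2 (251 CPM), Hbb-y (1070 CPM, rounded) and Hba-x (847 CPM), and library 25 for Fgf8 (52.0 CPM).

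Among list scores (mean log2 level relative to wild type), wild-type library 26 was highest for integrins and focal adhesion (0.22), clathrin and early endosome (0.1), Hippo-YAP targets (0.28) and haem and iron handling (0.21). Wild-type library 33 was highest for lateral plate, limb and allantois (0.35) and heat shock and chaperonin (0.12), and wild-type library 24 was lowest for the BMP and TGF-beta pathway (-0.09).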

How the results depend on the processing

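No paired analysis was possible because the count columns carry other numbers than the replicate numbers of the titles. The number of genes called was 0 by edgeR and was 45 by DESeq2 on 3 groups, 478 by DESeq2 on 2 groups and 0 to 4 with 1 library left out (4 without WT 33). The count at an unadjusted p under 0.05 (1823) was 3173 by DESeq2 on 2 groups and 706 to 2620 with 1 library left out. The higher count (1034) was 1820 by DESeq2 on 2 groups and 369 to 1400 with 1 library left out, and the lower count (789) was 1190 with 2 groups alone, 1353 by DESeq2 on 2 groups and 238 to 1220 with 1 library left out. Non-overlapping genes (1218) were 1386 to 3228 with 1 library left out.

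Of 2151 fold changes of 127 named genes under these settings, 2053 kept their direction and side of the threshold, 71 passed it in the alternative alone and 27 changed sign. Sign changes with the length trend removed were Fgfr1 (0.13, and 0.12 with 2 groups alone) and Spry2 (-0.09 in both). Col4a1 was 0.00 with 2 groups alone and by limma-voom, where Pax6 was -1.54. With a library left out, the log2 fold change ranged from -0.18 to 0.06 for Fgfr1, -0.28 to 0.03 for Frs2, -0.14 to 0.02 for Crkl, -0.16 to 0.04 for Etv5, -0.12 to 0.17 for Spry2, -0.07 to 0.06 for Col4a1, -1.31 to 0.74 for Pax6 and -0.24 to 0.36 for Wnt3a. The cause was not tested. Of 901 list medians, 864 moved by less than the spread between libraries and 37 by more, and 15 lists changed sign in 31 cases. The common coefficient of variation was 0.325 over 4 libraries a group, and genes that did not pass the filter on low counts were not tested at this depth.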
